A study of Xenopus laevis with 16 samples.

Results

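The FGF ligands, FGF receptors and Sprouty genes on the array were taken as the probes that the array files name FGF-8b or FGFR3, those whose gene name contains fgf or spry, and those described as fibroblast growth factor or sprouty, with FRL1 left out. The rule gave 12 of 21495 probes. They comprised 5 probes of secreted ligands (FGF-8b, XFGF-20, fgf2, fgf3 and fgf9), 3 of receptors with a kinase domain (X1FGFR, Fgfr2 and FGFR3), 1 of the receptor-like protein fgfrl1, 1 of Sprouty 2 (LOC398313), 1 of the intracellular FGF homologous factor fgf13 and 1 cDNA clone, AW199617, described as similar to an FGF-related protein. Of these, 11 matched a gene of the RefSeq table for assembly Xenopus_laevis_v10.1, where X1FGFR is fgfr1.L, FGF-8b is fgf8.L, XFGF-20 is fgf20.L and LOC398313 is spry2.S. That table also named 2 probes that the rule does not reach, LOC398232 (spry2.L) and LOC397701 (fgfr4.L). Their values are given alongside but they are not counted among the 12. The 2 Sprouty probes stand for homeologous copies of 1 gene, and a probe of one copy may also bind the other, so they are not independent.

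Xenopus laevis embryos received 60 ng of morpholino in each blastomere at the 2-cell stage. One group received a control morpholino and the other PVD2, a mixture directed against the POUV factors Xlpou25, Xlpou60 and Xlpou91, the frog homologs of Oct4. RNA came from pools of 3 whole embryos or of 25 animal caps, the prospective ectoderm explanted from the blastula, at stage 9 (late blastula) and stage 10 (early gastrula), so that morpholino, tissue and stage gave 8 groups of 2 replicates. Each sample, labelled with Cy3, was hybridized with a Cy5-labelled reference of whole-embryo RNA pooled over many stages, and every value below is a log2 ratio of sample over that reference unless stated otherwise. Scanner output of 15 arrays was used, so PVD2 caps at stage 10 were represented by replicate 1 alone.

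FGF ligands bind receptor tyrosine kinases at the cell surface, and the activated receptor signals through docking proteins, Ras and the ERK kinase cascade to transcription factors in the nucleus. In the frog blastula and gastrula this pathway maintains mesoderm in the marginal zone, and brachyury is one of its best known targets. Sprouty proteins are induced by FGF signalling in many tissues and feed back on it as inhibitors, and Xenopus Sprouty 2 has been linked to gastrulation movements. fgf13 belongs to the FGF family by sequence but acts inside the cell and does not signal through these receptors, and fgfrl1 lacks the kinase domain.

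On each array 49.6% to 63.2% of all probes gave a Cy3 signal that the scanner software called well above background. The median absolute log2 ratio was 0.0185 on the array of PVD2 whole embryos at stage 10, replicate 2, against 0.0875 to 0.233 on the other 14, so this array stands apart, with most of its ratios nearer 0. Whole embryos and caps were scanned on different days, so tissue cannot be told apart from scan day, whereas each PVD2 array shared a slide with the control array of its tissue, stage and replicate, which gave 7 same-slide pairs. On every slide stage 9 lay at array positions 1 (control) and 2 (PVD2), and stage 10 at 3 (control) and 4 (PVD2). Array position therefore cannot be told apart from morpholino or stage. The morpholinos need not lower their target transcripts. The probe of pou5f3.1.L (xoct-91 in the files) lay between −2.66 and 0.60 on the 8 control arrays and between −3.51 and 0.40 on the 7 PVD2 arrays, and that of pou5f3.3.L (LOC397936) between 0.98 and 1.89 and between 1.82 and 2.07. The tissue labels were checked with 17 probes of marginal and vegetal markers, whose summed ratio (on a linear scale) was 15.6 to 74.9 in whole embryos and 5.57 to 7.71 in caps. Of these 17, 14 were lower in control caps at a limma adjusted p of at most 0.05 and 0 higher, against 3.24% and 4.33% of all probes.

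Of the 12 probes, 6 were well above background on all 15 arrays and 3 on fewer than 8 arrays, namely FGFR3 (5 arrays), fgf3 (1 array) and fgfrl1 (1 array). A probe that stays near background can only report a bound. The values and intervals given for these 3 therefore describe dim spots, whose ratios the background correction draws towards 0.

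Averaged over the 4 comparisons of PVD2 with control, in both tissues and at both stages, FGF-8b, a ligand expressed around the blastopore, and the Sprouty 2 probe LOC398313 fell to 0.458 and 0.476 times their control levels, though both mean effects turned positive when the ratios of each array were scaled to a common spread. That scaling multiplied the ratios of the array that stands apart by 9.05. The second Sprouty 2 probe, LOC398232, fell to 0.489 times its control level with the same exception, and no receptor probe was called. With limma at a Benjamini-Hochberg adjusted p of at most 0.05, 2 of the 12 probes were called lower and 0 higher, against 0.336% of all probes called lower and 0.0513% called higher. The median effect over the 12 probes was −0.10, against 0.01 over all probes.

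FGF-8b was measured well above background on all 15 arrays. In whole embryos at stage 9 its log2 ratio was 0.81 and 0.74 in the controls and −0.05 and −0.22 in PVD2. At stage 10 the controls gave 1.31 and 1.49 and PVD2 0.73 and 1.36. At stage 9 every PVD2 array lay below both controls, while at stage 10 the ranges overlapped, with replicate 2 of PVD2, the array that stands apart, between the controls. In caps at stage 9 the controls gave −1.91 and −1.78 and PVD2 −3.65 and −3.83. At stage 10 the control caps gave −2.04 and −1.63 and the single PVD2 array −3.19. In caps the PVD2 arrays thus lay below all control caps.

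The mean of the 4 PVD2 effects on FGF-8b was −1.13 on the log2 scale (SE 0.11, 95% interval −1.37 to −0.88, limma adjusted p = 0.00531), a level 0.458 times that of the controls, though scaling between arrays turned this mean to 0.70 (SE 1.62). That scaling multiplied the ratios of the array that stands apart by 9.05 and those of the other arrays by 0.671 to 1.94. FGF-8b was lower in 7 of 7 same-slide pairs, by 0.12 to 2.04. Of the 12 probes, 2 were lower in all 7 pairs, against 2.18% of all probes. The call of FGF-8b was kept in 15 of 15 fits that left out 1 array, with effects from −1.21 to −1.05. It was lost with median centring in place of loess (−0.85, limma adjusted p = 0.903), as were the calls of both Sprouty 2 probes.

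Taken singly, the effect on FGF-8b was −0.91 in whole embryos at stage 9 (SE 0.21, limma adjusted p = 1), −0.36 in whole embryos at stage 10 (SE 0.21, limma adjusted p = 0.998), −1.89 in caps at stage 9 (SE 0.21, limma adjusted p = 0.0409) and −1.35 in caps at stage 10 (SE 0.25, limma adjusted p = 0.883). In caps at stage 9, 1 of the 12 probes was called, FGF-8b, against 0.0279% of all probes. In each of the other 3 comparisons 0 of the 12 were called, against 0% of all probes, and at an unadjusted p under 0.05 there were 2 of the 12 in whole embryos at stage 9 (1.38% of all probes), 0 in whole embryos at stage 10 (2.98%) and 2 in caps at stage 10 (1.64%). The stage 9 cap call was kept in 3 of 15 fits without 1 array, those without PVD2 whole embryos at stage 10 (replicate 1 or 2) or PVD2 caps at stage 10. Without any 1 of the other 12 arrays its adjusted p lay between 0.0632 and 0.366, and with the slide as a block it was 0.0589.

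In fits to the arrays of 1 tissue, and so of 1 scan day, the average PVD2 effect on FGF-8b was −0.63 in whole embryos (SE 0.15, limma adjusted p = 0.999) and −1.62 in caps (SE 0.13, limma adjusted p = 0.138). The difference of the effect between caps and whole embryos was −0.99 (SE 0.22, unadjusted p = 0.00162, limma adjusted p = 1), and the effect was 0.55 higher at stage 10 than at stage 9 (SE 0.22, limma adjusted p = 1). Neither difference was called for any of the 12 probes, against 0% of all probes called for either, and 2 of the 12 for the tissues (0.676% of all probes) and 1 for the stages (1.37%) had an unadjusted p under 0.05. The authors' table of processed values, which holds both replicates of PVD2 caps at stage 10, put these at −3.12 and −2.85 relative to the mean of the 8 control arrays, with the control caps of that stage at −1.61 and −1.14. On these 16 arrays the mean effect on FGF-8b was −1.22 (SE 0.13, limma adjusted p = 0.00124).

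**Figure D1:**
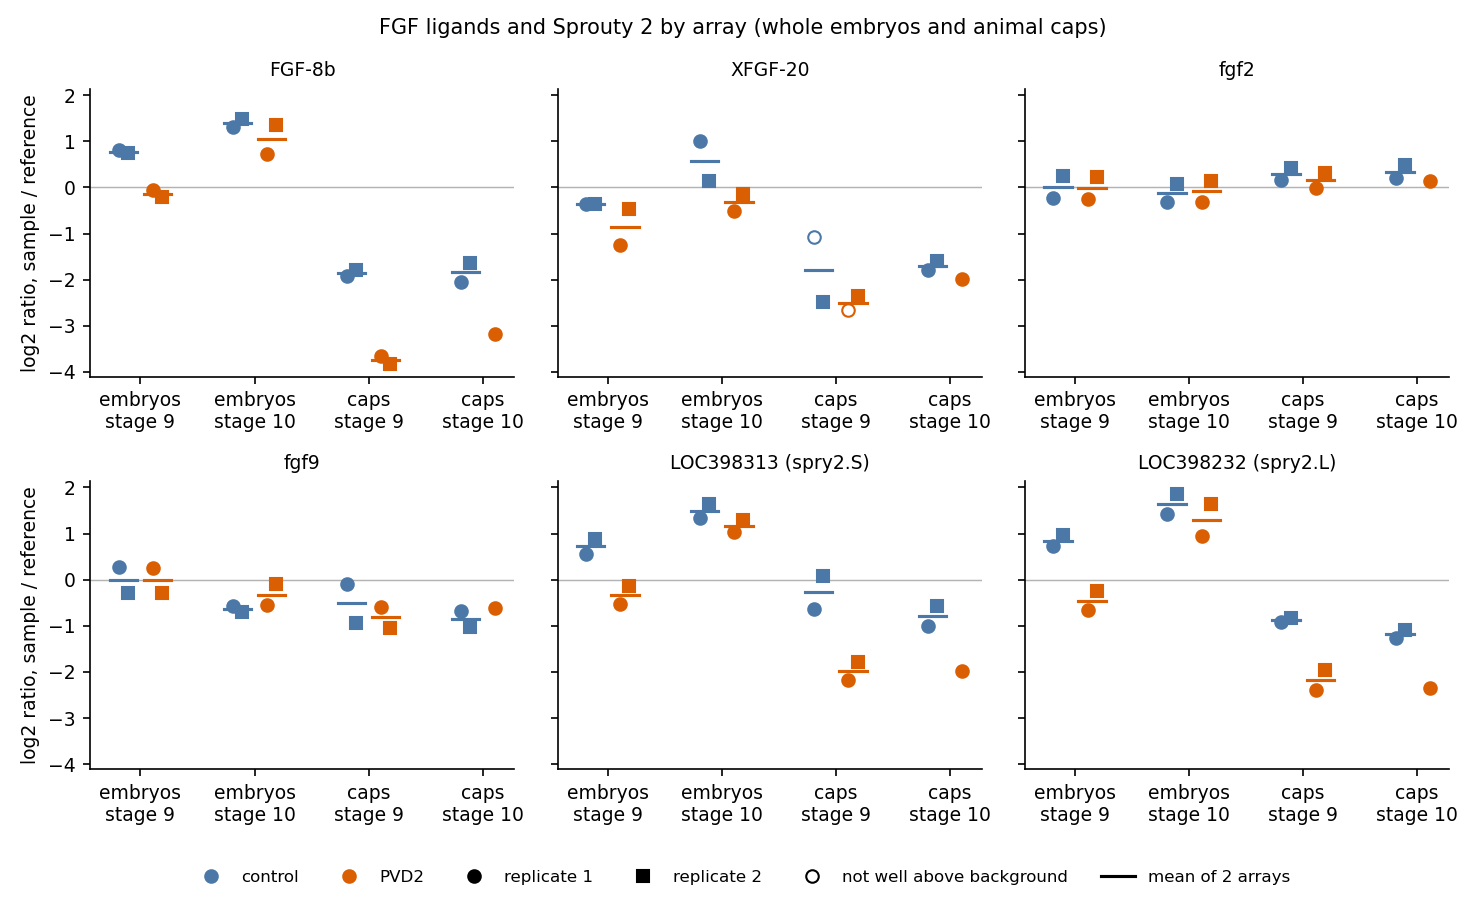
Log2 ratio of sample over reference (y axis) of 4 FGF ligand probes and the 2 Sprouty 2 probes on each of 15 arrays, by tissue and stage (x axis), with controls in blue, PVD2 in orange, bars for the mean of 2 arrays and open symbols for spots not well above background. Within each morpholino group FGF-8b and both Sprouty probes lie lower in caps than in embryos. These 3 probes also lie lower in PVD2 at stage 9 in both tissues. Their mean effects turn sign when arrays are scaled to each other, and so do the small mean effects of fgf2 and fgf9. On the unscaled values shown, fgf2 lies between −0.32 and 0.48.

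XFGF-20, a secreted ligand of the FGF9 subfamily, had values that varied more between replicates. Control whole embryos gave −0.36 and −0.35 at stage 9 and 1.01 and 0.14 at stage 10, and PVD2 embryos −1.24 and −0.46, then −0.51 and −0.13. Control caps gave −1.08 and −2.49 at stage 9 and −1.80 and −1.59 at stage 10, and PVD2 caps −2.66 and −2.36, then −1.98. Whole embryos lay above the caps, except that 1 control cap array of stage 9, where the spot was not well above background, reached the range of the PVD2 embryos. Its mean PVD2 effect was −0.60 (SE 0.25, 95% interval −1.16 to −0.04, unadjusted p = 0.0378, limma adjusted p = 1), lower in 6 of 7 pairs, and was not called. Under 14 alternatives of processing the mean effect ran from −1.21 to −0.38. None called it, with a limma adjusted p of at least 0.0734. On the authors' processed values, relative to the control mean, PVD2 stood at 1.19 and 0.26 in embryos at stage 10, against 2.92 and 1.95. In caps it stood at −4.30 and −3.06 against −2.76 and −2.31 at stage 9, then −1.99 and −1.13 against −0.77 and −0.39. In embryos at stage 9 the groups overlapped.

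fgf2, a ligand without a signal peptide that is stored in the egg, was nearly level. It ranged from −0.32 to 0.25 on the 8 whole embryo arrays and from −0.00 to 0.48 on the 7 cap arrays, and its mean PVD2 effect was −0.08 (SE 0.13, 95% interval −0.38 to 0.23, limma adjusted p = 1). In control embryos it stood at −0.24 and 0.25 at stage 9 and −0.32 and 0.07 at stage 10, and in PVD2 embryos at −0.25 and 0.22, then −0.31 and 0.15. Control caps gave 0.16 and 0.41, then 0.21 and 0.48, and PVD2 caps −0.00 and 0.31, then 0.14. Within a tissue the 2 morpholino groups overlapped at stage 9 and in embryos at stage 10, and replicate 2 was above replicate 1 in every group that had both. In caps at stage 10 the single PVD2 array, of replicate 1, lay below both controls. On the authors' processed values, relative to the control mean, the groups overlapped there, at 0.05 and 0.36 in PVD2 against 0.11 and 0.41.

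fgf9, another secreted ligand, gave 0.27 and −0.29 in control embryos at stage 9, −0.58 and −0.70 at stage 10, and −0.09 and −0.93, then −0.68 and −1.02, in control caps. PVD2 embryos gave 0.26 and −0.29, then −0.56 and −0.09, and PVD2 caps −0.58 and −1.05, then −0.62. The morpholino groups overlapped in both tissues at stage 9, and at stage 10 the PVD2 arrays lay above the controls in both. In embryos the value of −0.09 came from the array that stands apart, and in caps there was a single PVD2 array. On the authors' processed values, relative to the control mean, fgf9 overlapped at stage 10 too. There fgf9 stood at 0.19 and −1.03 in PVD2 embryos against −0.09 and −0.46, and at −0.10 and −0.58 in PVD2 caps against −0.06 and −0.90. Its mean PVD2 effect was 0.06 (SE 0.18, 95% interval −0.35 to 0.46, limma adjusted p = 1), a value whose sign turned under 7 alternatives. The 4 remaining non-receptor or dim probes, fgf3, AW199617, fgf13 and fgfrl1, had mean effects from −0.15 to 0.07, with intervals reaching from −0.62 to 0.62, and none was called. fgf3, a ligand of the same receptors, was well above background on only 1 array, replicate 1 of control whole embryos at stage 10. Its log2 Cy3 signal was 7.07 there, 6.79 on the other control array of that group, and 6.69 and 6.77 in PVD2. The same-slide differences in log2 ratio were −0.46 and 0.20, so no fold is given for fgf3. On the authors' processed values, relative to the control mean, fgf3 was −0.89 and −0.75 in PVD2 embryos at stage 9, against 0.40 and 1.44. At stage 10 it was −0.90 and −0.52 against 2.41 and 0.56. In PVD2 caps it lay above both controls at stage 9 (−1.02 and −0.56 against −1.13 and −1.51) and between them at stage 10. Its mean effect ran from −0.89 to −0.08 under the alternatives and was not called. AW199617 lay between 0.02 and 0.75 on the 15 arrays and fgf13 between −1.88 and −0.20.

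Both Sprouty 2 probes fell with PVD2, except that their mean effects turned positive when arrays were scaled to each other. LOC398313 gave 0.56 and 0.89 in control embryos at stage 9 and −0.53 and −0.15 in PVD2, and 1.33 and 1.63 against 1.04 and 1.28 at stage 10. In caps it gave −0.64 and 0.09 in the controls and −2.17 and −1.78 in PVD2 at stage 9, and −1.00 and −0.58 against −1.99 at stage 10. The PVD2 arrays lay below both controls in each of the 4 comparisons. The mean effect was −1.07 (SE 0.15, 95% interval −1.40 to −0.74, limma adjusted p = 0.0250), a level 0.476 times that of the controls, lower in 7 of 7 pairs, and 0.52 (SE 1.47) when arrays were scaled to each other.

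LOC398232, the other copy, gave 0.73 and 0.96 in control embryos at stage 9 and −0.66 and −0.26 in PVD2, and 1.43 and 1.85 against 0.95 and 1.63 at stage 10. Control caps gave −0.91 and −0.84 and PVD2 caps −2.40 and −1.96 at stage 9, and at stage 10 they gave −1.27 and −1.09 against −2.35. The ranges overlapped only in whole embryos at stage 10. The mean effect was −1.03 (SE 0.14, 95% interval −1.34 to −0.72, limma adjusted p = 0.0220), lower in 7 of 7 pairs, and 0.92 (SE 1.89) when arrays were scaled to each other.

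Both Sprouty calls lay close to the threshold. That of LOC398313 was kept in 5 of 15 fits without 1 array, those without control caps at stage 9 (replicate 1 or 2), control caps at stage 10 replicate 1, or replicate 2 of PVD2 whole embryos at stage 9 or 10, and without any other array the adjusted p was 0.0528 to 0.0915. That of LOC398232 was kept in 5 of 15, those without control whole embryos at stage 10 replicate 1, PVD2 whole embryos at stage 9 replicate 2, either replicate of PVD2 whole embryos at stage 10, or PVD2 caps at stage 9 replicate 2, and otherwise the adjusted p was 0.0536 to 0.0715. With the slide as a block both calls had lower adjusted p, 0.00274 and 0.00352. Without moderation of the variance the adjusted p was 0.0963 and 0.0851.

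In caps at stage 9 the effect on LOC398313 was −1.70 (SE 0.28, limma adjusted p = 0.217) and that on LOC398232 −1.30 (SE 0.26, limma adjusted p = 0.411). Neither was called without a block, and both were called with the slide as a block (limma adjusted p = 0.00628 and 0.0481) or the replicate number as a block (limma adjusted p = 0.00752 and 0.0455). The share of all probes called with either block is not given here. In whole embryos at stage 9 the effects were −1.06 and −1.30 (limma adjusted p = 1 for both), and at stage 10 they were −0.32 and −0.35. With the slide as a block the stage 9 effects were still not called (limma adjusted p = 0.146 for both). Their unadjusted limma p was then 7.37e-06 and 1.36e-05. Within 1 tissue the average effect on LOC398313 was −0.69 in whole embryos (SE 0.14, limma adjusted p = 0.843) and −1.45 in caps (SE 0.24, limma adjusted p = 0.522).

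The receptors had no call in any comparison of PVD2 with control. Of all probes, 0.387% were called in the mean effect, 0.0279% in caps at stage 9 and 0% in each other comparison. The absence of a call among so few probes is therefore no result about receptors. The 4 receptor probes, LOC397701 included, had mean effects between −0.14 and −0.02, and their 16 single effects ran from −0.45 to 0.36 with adjusted p of at least 0.998. Without a block, the widest interval of the 4 mean effects was that of Fgfr2 (−0.64 to 0.61) and the narrowest that of FGFR3 (−0.27 to 0.08). FGFR3 was well above background on only 5 of the 15 arrays, and the background correction draws such ratios towards 0. Its narrow interval therefore does not bound the change of the transcript, and its mean effect ran from −0.31 to −0.04 under the alternatives of processing. Single comparisons had wider intervals, such as −1.56 to 0.80 for Fgfr2 in caps at stage 9. With the slide as a block the intervals of the mean effect were −0.45 to 0.31 for Fgfr2, −0.51 to 0.11 for X1FGFR and −0.41 to 0.11 for LOC397701. Neither fit resolves changes inside its interval of each probe.

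X1FGFR, the probe of FGF receptor 1, gave −0.56 and −0.96 in control embryos at stage 9 and −0.74 and −0.52 at stage 10, and −0.82 and −1.00, then −0.83 and −0.41, in PVD2 embryos. Control caps gave 0.46 and 0.04, then 0.13 and 0.07, and PVD2 caps 0.42 and −0.52, then −0.01. The morpholino groups overlapped in both tissues at stage 9 and in embryos at stage 10. In caps at stage 10 X1FGFR was lower on the single PVD2 array than on both controls. On the authors' processed values, relative to the control mean, X1FGFR stood there at 0.33 and −0.05 in PVD2 against 0.41 and 0.48. Its mean PVD2 effect was −0.14 (SE 0.16, 95% interval −0.50 to 0.22, limma adjusted p = 1), lower in 6 of 7 pairs.

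Fgfr2, the probe of FGF receptor 2, gave −1.80 and −1.28 in control embryos at stage 9, −1.77 and −1.34 at stage 10, and −1.03 and −1.95, then −1.16 and −1.26, in control caps. PVD2 embryos gave −2.25 and −1.43, then −1.99 and −0.40, and PVD2 caps −1.73 and −2.00, then −0.97. The groups overlapped except in caps at stage 10, where the single PVD2 array was the highest. The value of −0.40 came from the array that stands apart, and the mean effect was −0.02 with it (SE 0.27, 95% interval −0.64 to 0.61, limma adjusted p = 1) and −0.22 without it. The 2 replicates of PVD2 embryos at stage 10 lay further apart than any 2 group means.

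FGFR3, the probe of FGF receptor 3, was well above background on 5 arrays, 4 of them whole embryo arrays of replicate 2. Its ratios stayed between −0.16 and 0.33 on all 15 arrays. Control embryos gave −0.10 and 0.06 at stage 9 and −0.05 and 0.32 at stage 10, and PVD2 embryos −0.09 and 0.08, then −0.16 and 0.01. Control caps gave 0.01 and 0.33, then −0.01 and 0.03, and PVD2 caps 0.08 and 0.18, then −0.15. In the order of the group means, from −0.15 in PVD2 caps at stage 10 to 0.17 in control caps at stage 9, the groups overlapped with their neighbours, except control caps at stage 10 and PVD2 caps at stage 9. The mean effect was −0.10 (SE 0.08, 95% interval −0.27 to 0.08, limma adjusted p = 1). In caps at stage 10 no array of either group was well above background, so no fold is given there.

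LOC397701, the probe of FGF receptor 4, was well above background on all 15 arrays. It gave −0.48 and −0.78 in control embryos at stage 9 and 0.10 and −0.26 at stage 10, against −0.68 and −0.40, then −0.43 and 0.04, in PVD2. Control caps gave 0.47 and 0.19, then 0.41 and 0.00, against 0.37 and 0.28, then −0.24, in PVD2. The morpholino groups overlapped at stage 9 in both tissues and in embryos at stage 10. In caps at stage 10 LOC397701 was lower on the single PVD2 array than on both controls. On the authors' processed values, relative to the control mean, LOC397701 stood there at −0.16 and −0.28 in PVD2 against 0.54 and 0.16. Its mean effect was −0.12 (SE 0.11, 95% interval −0.38 to 0.14, limma adjusted p = 1).

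**Figure D2:**
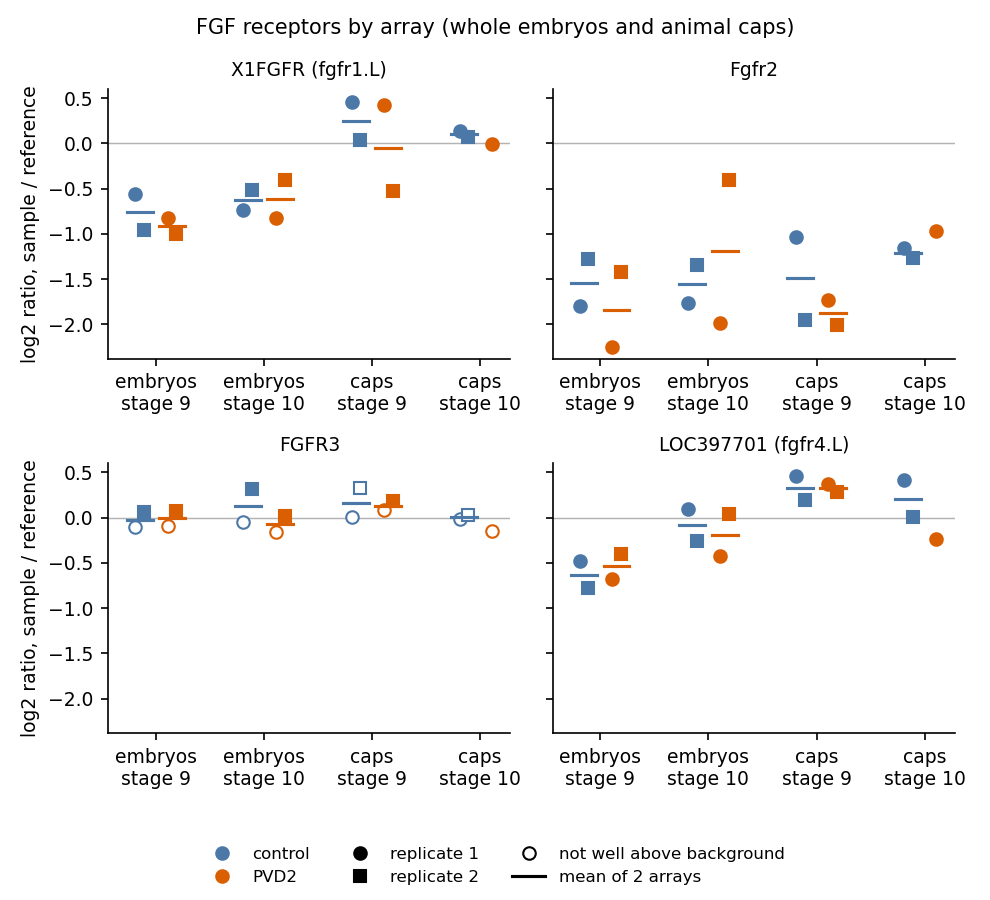
Log2 ratio of sample over reference (y axis) of 4 FGF receptor probes on each of 15 arrays, by tissue and stage (x axis), with controls in blue, PVD2 in orange, bars for the mean of 2 arrays and open symbols for spots not well above background. Control and PVD2 values overlap at stage 9 in both tissues and in embryos at stage 10, the control spots of X1FGFR lie higher in caps than in embryos, and 10 of the 15 FGFR3 spots are open. In caps at stage 10 the single PVD2 spot lies below both controls for X1FGFR, FGFR3 and LOC397701 and above both for Fgfr2.

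The effect on FGF-8b was set directly against that on FGFR3. Averaged over the 4 comparisons, the PVD2 effect on FGF-8b minus that on FGFR3 was −1.03 (two-sided exact permutation test over the 648 relabellings of arrays within tissue and stage, p = 0.00309, the smallest possible being 0.00154). The p ran from 0.00309 to 0.0185 in the fits without 1 array, and was 0.0756 on the log ratio of the scanner software and 0.0679 on the authors' values of the same 15 arrays. With median centring the difference was −0.66 (exact permutation p = 0.159). The difference was 0.76 when arrays were scaled to each other (exact permutation p = 0.961). Because FGFR3 was dim on 10 of 15 arrays, this contrast compares a measured ligand with a receptor spot near background. It mainly repeats the effect on FGF-8b itself (−1.13, against −0.10 for FGFR3). It therefore cannot show that ligand and receptor transcripts changed by unequal amounts. The 2 probes are those named by the rule, which was chosen with earlier results of these data known. X1FGFR, Fgfr2 and LOC397701, well above background on all 15 arrays, were not set against FGF-8b in this test. The relabellings were made within tissue and stage and did not keep the same-slide pairs.

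**Figure D3:**
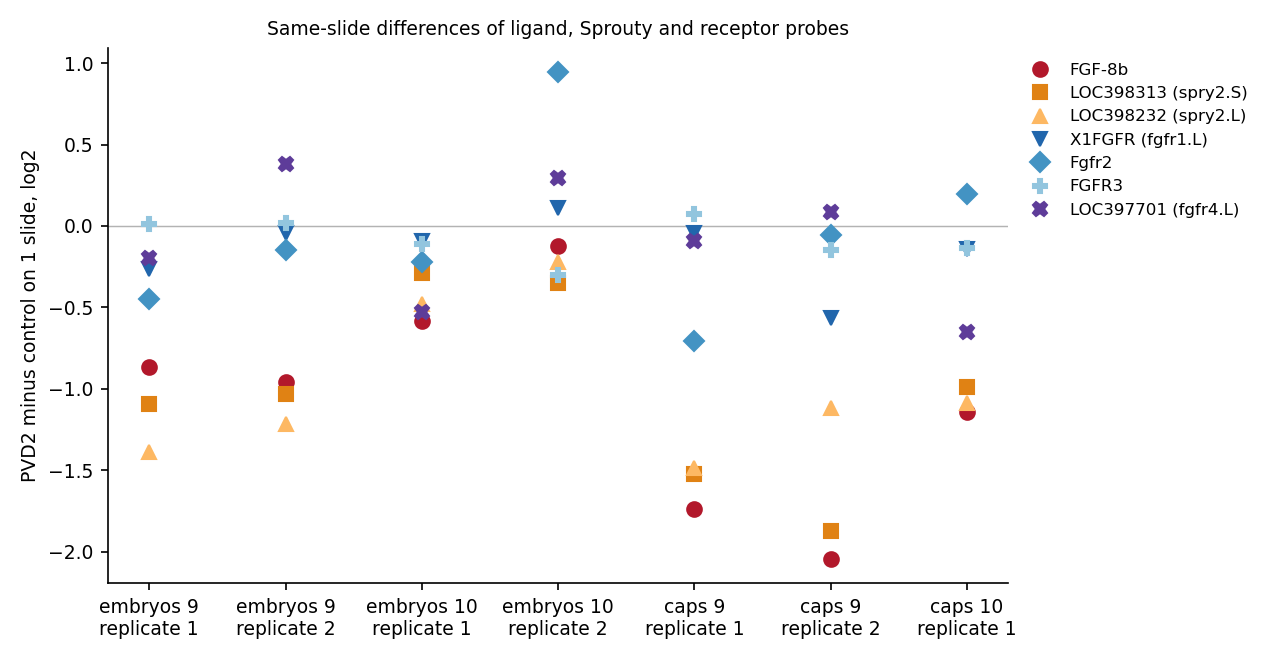
Difference of PVD2 minus control between 2 arrays of the same slide, on the log2 scale (y axis), for FGF-8b, the 2 Sprouty 2 probes and 4 receptor probes in each of 7 pairs (x axis; tissue, stage and replicate). FGF-8b and both Sprouty probes are below 0 in 7 of 7 pairs on these unscaled values (the mean effects turn above 0 when arrays are scaled to each other), while the receptor points lie on both sides of 0.

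**Figure D4:**
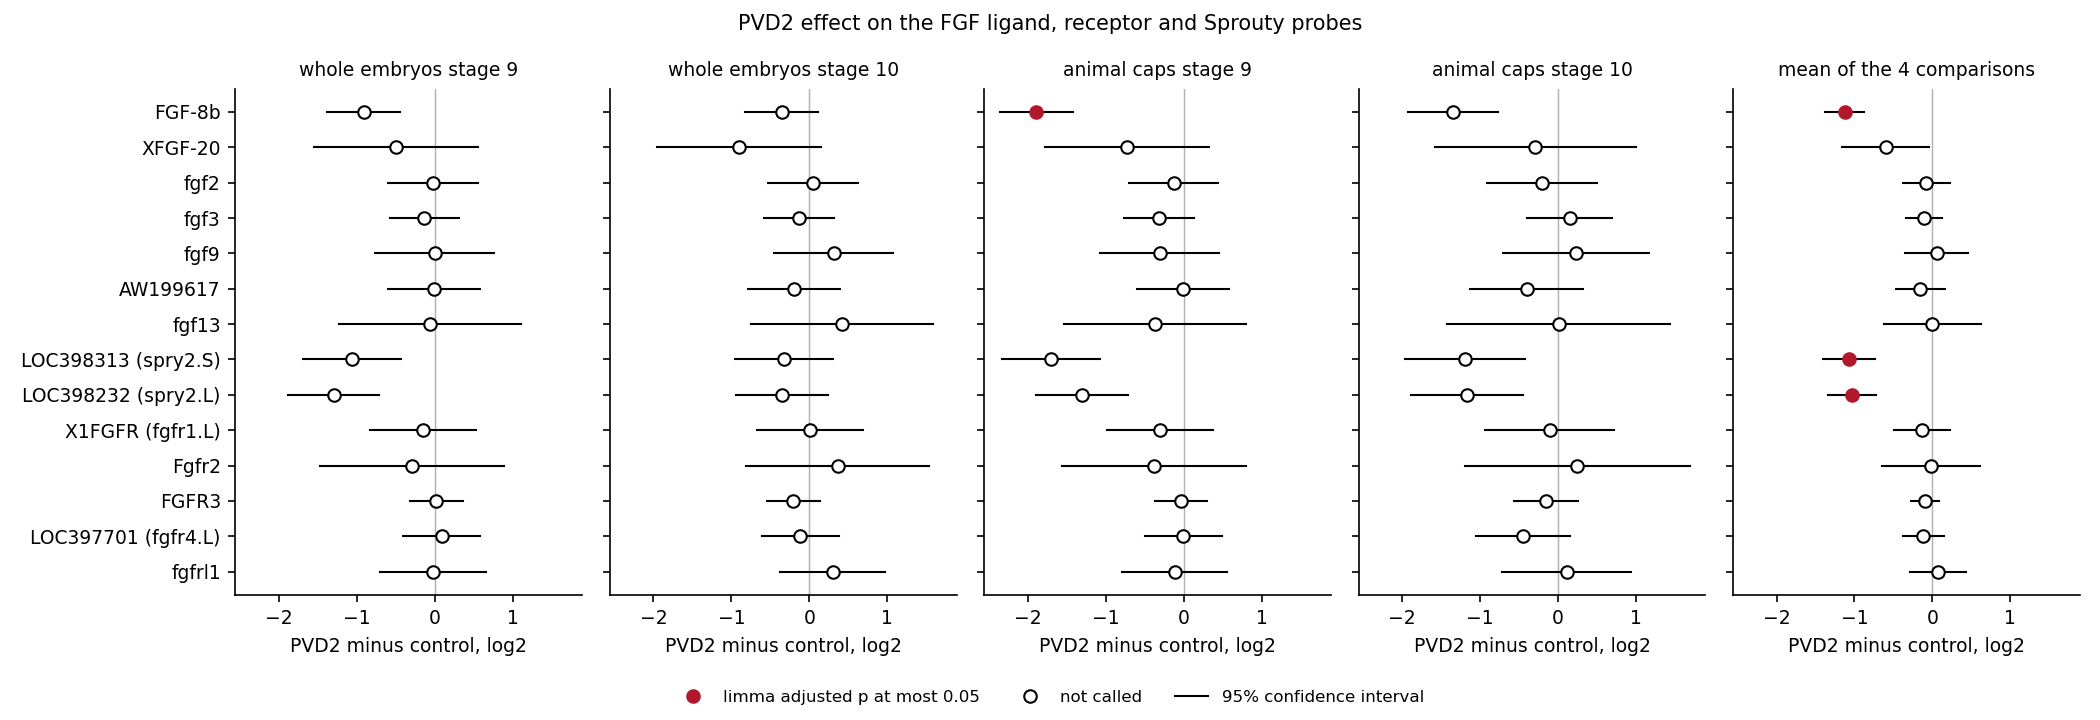
PVD2 minus control on the log2 scale (x axis) with its 95% confidence interval for the 12 probes of the rule and the 2 added probes (y axis), in each of the 4 comparisons and in their mean, with filled red points where the limma adjusted p was at most 0.05. FGF-8b is called in caps at stage 9 and, with both Sprouty 2 probes, in the mean. There the 3 signs turn only when arrays are scaled to each other. No receptor is called, against 0.387% of all probes called in the mean.

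The control arrays were also compared between tissues. FGF-8b, XFGF-20 and Sprouty 2 were lower in control caps than in control whole embryos, and X1FGFR was higher. Of the 12 probes, 3 were called lower and 1 higher, against 3.24% and 4.33% of all probes (7.57% in both directions). Caps are cut without the marginal zone, and the 17 marginal and vegetal marker probes had a median difference of −2.84. The part of these markers in the ligand difference was not tested, and in RNA of pooled tissue fewer expressing cells and less RNA per cell cannot be told apart.

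FGF-8b averaged 0.78 ± 0.05 (SD, n = 2) and 1.40 ± 0.12 in control embryos at stages 9 and 10, against −1.85 ± 0.09 and −1.84 ± 0.29 in control caps. The difference, averaged over the stages, was −2.93 (SE 0.15, limma adjusted p = 3.66e-05), a level 0.131 times that of the embryos, and −2.77 without a call (limma adjusted p = 0.606) when arrays were scaled to each other. In the order of the 8 group means, control and PVD2 embryos at stage 10 (1.40 and 1.05) came first, then control embryos (0.78) and PVD2 embryos (−0.13) at stage 9, control caps at stages 10 and 9, and PVD2 caps at stages 10 (−3.19) and 9 (−3.74). By range, the first 3 groups overlapped with their neighbours, as did the 2 control cap groups, and the other neighbours were separated by more than the range of either.

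LOC398313 differed by −1.64 between control caps and control embryos (SE 0.20, limma adjusted p = 0.00273), LOC398232 by −2.27 (SE 0.18, limma adjusted p = 0.000346) and XFGF-20 by −1.85 (SE 0.33, limma adjusted p = 0.0129). The call of XFGF-20 was lost without control caps at stage 10 replicate 1 (limma adjusted p = 0.0531) and with the slide as a random block (limma adjusted p = 0.0623), and its difference was −3.12 on the authors' processed values. X1FGFR was 0.87 higher in caps (SE 0.21, limma adjusted p = 0.0418). Its adjusted p was 0.110 with the slide as a random block, and the call was also lost without any 1 of the 8 control arrays (adjusted p 0.0598 to 0.143) or of the 2 PVD2 whole embryo arrays of stage 9 (0.0631). LOC397701 differed by 0.62 (SE 0.15, limma adjusted p = 0.0441), but by −0.43 in the Cy3 channel alone (limma adjusted p = 0.0353), so that its direction depends on whether the reference channel is used. With the slide as a random block its adjusted p was 0.140. Fgfr2 differed by 0.20 (SE 0.37, limma adjusted p = 0.806) and FGFR3 by 0.03 (SE 0.10, limma adjusted p = 0.900). FGFR3 was well above background on no control cap array, so its value describes dim spots and gives neither a fold nor a direction.

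**Figure D5:**
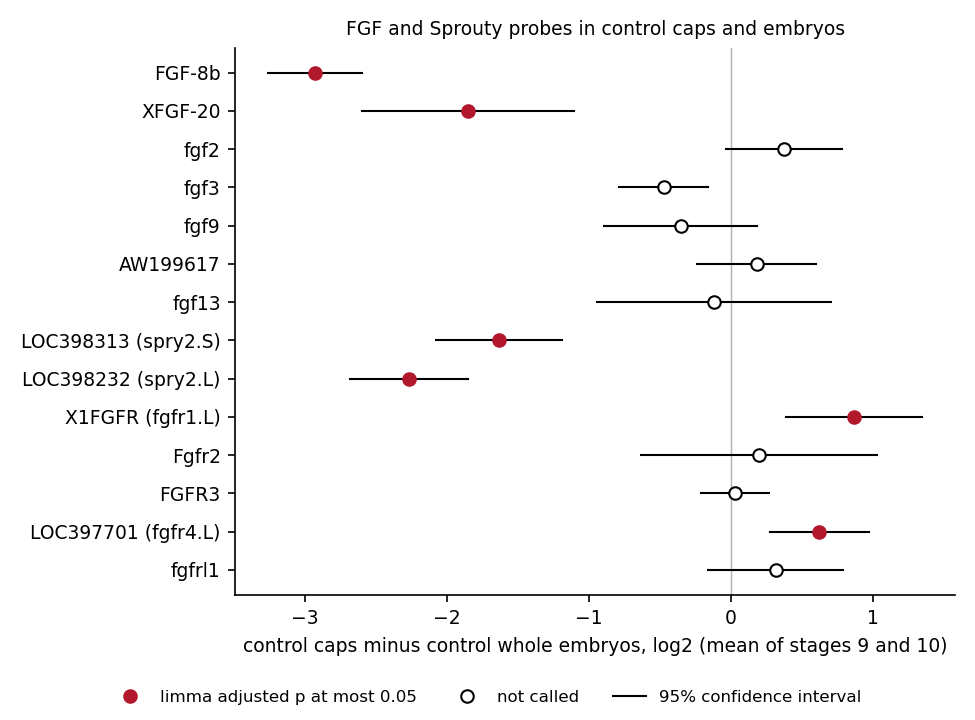
Control caps minus control whole embryos on the log2 scale, averaged over stages 9 and 10 (x axis), with 95% confidence intervals for the 12 probes of the rule and the 2 added probes (y axis) and filled red points where the limma adjusted p was at most 0.05. FGF-8b has the largest difference, −2.93, and X1FGFR and LOC397701 lie on the opposite side at 0.87 and 0.62, LOC397701 with the opposite sign in the Cy3 channel alone.

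The controls were also compared between stages within each tissue. From stage 9 to stage 10 LOC398313 differed by 0.76 in control embryos (SE 0.28, limma adjusted p = 0.425) and by −0.51 in control caps (SE 0.28, limma adjusted p = 1), and LOC398232 by 0.79 and −0.31. The differences in embryos were called with the slide as a block, for LOC398313 (limma adjusted p = 0.00942) and LOC398232 (limma adjusted p = 0.0220), and so was that of LOC398313 in caps (limma adjusted p = 0.0463). The share of all probes called with this block is not given here, so these calls are not read as particular to Sprouty 2. The difference between the tissues was −1.27 for LOC398313 (SE 0.39, unadjusted p = 0.0105, limma adjusted p = 1; 0.109 with the slide as a block) and was not called. For this difference 0 of the 12 probes were called, against 0.00466% of all probes, and 1 had an unadjusted p under 0.05, against 2.09% of all probes. FGF-8b differed by 0.62 between the stages in embryos (SE 0.21, limma adjusted p = 0.332) and by 0.01 in caps (SE 0.21, limma adjusted p = 1). Without a block, 0 of the 12 probes were called in either tissue, against 1.06% of all probes in embryos (0.437% higher) and 0.685% in caps, and 2 of the 12 in embryos (8.4% of all probes) and 0 in caps (5.89%) had an unadjusted p under 0.05.

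Genes further along the pathway were taken from a list of 51 gene symbols, of which 23 had 1 or more of 29 probes. None was called in the mean PVD2 effect (0 of 29, against 0.387% of all probes), 4 had an unadjusted p under 0.05 (4.22% of all probes), and the median effect over the 29 was 0.07, against 0.01 over all probes. The 13 probes of the ERK cascade, which carries the signal from the receptor to the nucleus, had effects from −0.14 (frs2, the receptor docking protein) to 0.24 (kras-A). Of the 13 probes of genes known to respond to FGF, 4 had mean effects below 0 and 9 above, with a median of 0.10. Among them, those furthest below 0 were the 2 eomesodermin probes, −1.14 for LOC495078 (SE 0.26, limma adjusted p = 0.215) and −0.78 for LOC398065 (SE 0.28, limma adjusted p = 0.828), which encode a T-box factor of mesendoderm. The probe of dusp6.S (LOC495060), a phosphatase that turns off ERK, stood at −0.72 (SE 0.25, limma adjusted p = 0.838). It is 1 of the 3 probes of feedback genes and inhibitors, the others being of flrt3. All 3 had mean effects below 0, with a median of −0.32. In caps at stage 10, with a single PVD2 array, 2 of the 3 lay above 0 (median 0.43). Furthest above 0 were the muscle regulator myod1.L (LOC397758) at 0.50 (SE 0.29, limma adjusted p = 1) and ets1.S (ets1a-A-prov) at 0.25 (SE 0.15, limma adjusted p = 1). Brachyury (Xbra) stood at −0.70 (SE 0.26, limma adjusted p = 0.946). The Xbra and eomesodermin probes are also among the marginal and vegetal markers, so the 2 lists are not separate readings.

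Markers of the surrounding tissue were read from the same arrays. Of the 17 marginal and vegetal probes, 0 were called in the mean PVD2 effect, against 0.387% of all probes. Of the 17, 16 had values below 0 and their median was −0.17, against 0.01 over all probes. Their summed linear ratio was 22.2 and 26.5 in control embryos at stage 9 against 15.6 and 19.0 in PVD2, 67.7 and 74.9 against 57.6 and 60.3 in embryos at stage 10, 6.04 and 7.71 against 5.57 and 5.89 in caps at stage 9, and 6.44 and 7.37 against 6.49 in caps at stage 10. In caps 11 to 13 of the 17 were well above background, and fst was so on 0 of 15 arrays. In the ectoderm list, 4 of 8 probes were called. Of these, 3 were lower in PVD2 (lim5/Lhx5, sox3 and Tcfap2a, regulators of early ectoderm), against 0.336% of all probes. The other was higher (dlx3-A-prov, a non-neural ectoderm gene), against 0.0513% of all probes. The summed ratio of the 8 lay below both controls on every PVD2 array, at 5.21 and 5.74 against 8.09 and 8.94 in embryos at stage 9, 8.52 and 9.54 against 13.0 and 13.5 at stage 10, 6.00 and 7.31 against 9.62 and 10.6 in caps at stage 9, and 10.6 against 14.8 and 15.4 at stage 10. Their part in the changes of FGF-8b and Sprouty 2 was not tested.

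Over the 15 arrays and among 9305 probes well above background on all of them, the 5 probes whose ratios followed FGF-8b most closely were gdf3.S (Pearson r = 0.987), LOC398232, the Sprouty 2 copy (r = 0.967), eomes.L (r = 0.966), Bix4 (r = 0.963) and eomes.S (r = 0.962). The gdf3 protein is a TGF-beta ligand and Bix4 a homeobox factor of the mesendoderm. Of the other probes of the rule, LOC398313 (r = 0.949) and XFGF-20 (r = 0.908) were closest to FGF-8b and X1FGFR was the furthest (r = −0.671). These correlations are across arrays that share the difference between tissues and are given as a description. For FGFR3 the closest of 9306 probes reached r = 0.845, and among the 5 closest the annotated one was nme2.L (r = 0.813), a nucleoside diphosphate kinase. FGFR3 was well above background on only 5 of the 15 arrays, so these 2 values are the highest of many correlations with a spot near background.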

How the data were processed

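The 12 probes and the gene lists were chosen with earlier results of these data known. The authors hybridized 2-colour Agilent arrays (Cy3 sample, Cy5 common reference, dyes not swapped) and scanned them with Feature Extraction 9.5.1.1. They deposited the unnormalized intensity of each spot, a log10 ratio per spot that the software had background subtracted and dye normalized, flags for spots well above background, and a table of processed values on a log10 scale, whose making is not given in the sources used here. In its differences between arrays that table follows the sample over reference ratio, and it was used for those differences only, converted to log2.

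Mean signals were background corrected by normexp (offset 50), loess normalized within each array and averaged over the spots of a probe, without 1417 control spots and without outlier spots, which left 189 of 21495 probes lacking a value on at least 1 array. Log2 ratios were fitted with limma 3.58.1 (R 4.3.3, statmod 1.5.0), 1 mean per group, with Benjamini-Hochberg adjustment over all probes at 0.05. The procedure was tested on simulated data with noise drawn independently for each array. That test could not show how the fit behaves when arrays of 1 slide deviate together. Precision is limited by having 1 or 2 arrays in a group.

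Arrays of the same replicate number deviated together in 6 of 6 comparisons between whole embryo groups (r from 0.530 to 0.825) and 3 of 3 between cap groups (r from 0.652 to 0.730), where they lay on 1 slide, and across tissues r ranged from 0.0641 to 0.708. The numbers were therefore taken to pair arrays within a tissue, and blocked values are given where a call changes.

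By rule, each array's value is given for FGF-8b, FGFR3, called probes, Sprouty probes, and ligand or receptor probes well above background on at least 8 arrays, other probes are given by range, and the 3 lowest and 2 highest effects of the pathway list are named. frs2, kras-A, Xbra and flrt3 were named after their values were seen. For a probe not well above background in a whole group, a fold would at most be a lower bound, and none is printed. Alternatives changed the background correction, normalization, channel, source of values, filter, variance, blocks and arrays included. The fits within 1 tissue and the difference of the stage change between tissues were chosen after seeing the data. No probe or protein sequence was in the sources used here, so none is printed.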

Additional observations from a re-analysis of the deposited data

How the results depend on the processing

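For whole embryos at either stage, caps at stage 10, and the differences of the PVD2 effect between tissues and between stages, 0 of the 12 probes were called under all alternatives and without any 1 array. In the mean effect, 2 probes were called, against 0 with median centring in place of loess, 0 with between-array scaling, 1 without moderation of the variance, and 1 to 2 without 1 array. In caps at stage 9, 1 was called, against 0 without background correction, with median centring, with between-array scaling, in the Cy3 channel alone, on the Feature Extraction log ratio, on the authors' values of 15 arrays and without moderation, 2 with the replicate number as a block, and 0 to 1 without 1 array. Between control tissues 4 were called, against 2 with median centring, between-array scaling or the slide block, 7 on the Feature Extraction log ratio and on the authors' values of 15 or 16 arrays, and 2 to 4 without 1 array. For the stage change of control embryos 0 were called, against 2 in the Cy3 channel alone and 1 on the Feature Extraction log ratio, on either set of the authors' values, and with the replicate or the slide as a block, and for control caps 0 against 1 with the slide block. The slide and replicate blocks changed no other count of calls. In caps at stage 9 the slide block left the count at 1 but changed the called probe. LOC398313 was called there (limma adjusted p = 0.00628) and FGF-8b was not (limma adjusted p = 0.0589).

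FGF-8b minus FGFR3 was −0.66 with median centring (exact permutation p = 0.159), 0.76 with between-array scaling (p = 0.961), −0.95 on the Feature Extraction log ratio (p = 0.0756), −0.97 on the authors' values of 15 arrays (p = 0.0679), and −1.09 to −0.97 without 1 array. Between-array scaling turned the mean effects of FGF-8b (0.70), LOC398313 (0.52) and LOC398232 (0.92) and multiplied 1 array of PVD2 embryos by 9.05. Median centring left them at −0.85, −0.79 and −0.74, none called (adjusted p = 0.903), and the cause was not tested. Without 1 array they ran from −1.21 to −1.05, −1.16 to −0.98 and −1.12 to −0.95.

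The 11 uncalled probes stayed uncalled in 152 of 152 values under the alternatives, and 24 changed sign. These were fgfrl1 without background correction (−0.037), with median centring (−0.0058), on the Feature Extraction log ratio (−0.30) and on the authors' 16 or 15 arrays (−0.34 and −0.30), fgf2 with median centring (0.14), between-array scaling (0.11) and the authors' 16 arrays (0.014), and fgf13 with an offset of 16 (0.084), median centring (0.15) and the replicate block (0.048). X1FGFR and LOC397701 turned with median centring (0.10 and 0.12). fgf9 turned without background correction (−0.11), with between-array scaling (−0.097), in Cy3 alone (−0.0032), on the Feature Extraction log ratio (−0.079), on the authors' 16 and 15 arrays (−0.14 and −0.079) and with the slide block (−0.0096), and Fgfr2 with an offset of 16 (0.032), median centring (0.15), Cy3 alone (0.010) and the replicate block (0.019). Without 1 array fgfrl1 ran from −0.044 to 0.18, fgf13 from −0.21 to 0.21, fgf9 from −0.046 to 0.16 and Fgfr2 from −0.22 to 0.18. The scan day could not be fitted as a block, since each day held 1 tissue. Signals near background limit FGFR3, fgf3 and fgfrl1.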
